A study of Homo sapiens with 18 samples.

Results

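YAP1, WWTR1, which encodes TAZ, and 8 genes reported as their targets, CYR61, CTGF, ANKRD1, AMOTL2, LATS2, AJUBA, F3 and NUAK2, were followed through mRNA sequencing of 3 head and neck squamous cell carcinoma (HNSCC) cell lines. They were chosen by gene name in the deposited count table, 10 of its 19901 genes, and all 10 were among the 15475 genes with enough reads to be tested. The table holds 18 libraries from the lines Detroit 562, FaDu and SCC-9: for each, 3 of cells left untreated and 3 of cells given hepatocyte growth factor (HGF), the ligand of the receptor Met, at 50 ng/ml. Detroit 562 came from a metastasis of a pharyngeal tumor, FaDu from a hypopharyngeal and SCC-9 from a tongue tumor, and each is 1 established line bought from a cell bank. Cells were plated at 750000 per well and treated from the next day, for 16 h by the sample records and the methods and for 48 h by the series record, and controls were left untreated. The medium was MEM-α for Detroit 562 and FaDu but DMEM F12 with hydrocortisone for SCC-9, so line and medium cannot be told apart in a comparison with SCC-9. The methods say that the experiment was repeated, but the labels do not tie a replicate number to a repeat, so p-values measure only the spread between these libraries, which may be technical.

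YAP and TAZ are the transcriptional coactivators at the end of the Hippo pathway. When the kinases MST1/2 and LATS1/2 are active they phosphorylate YAP and TAZ, which are then held in the cytoplasm or degraded. Otherwise both enter the nucleus, bind TEAD transcription factors and raise genes of growth, cytoskeleton and matrix, several of which feed back on the pathway. In squamous carcinoma the pair is known for driving proliferation and motility, and YAP is known to respond to cell density, matrix stiffness and growth factors. The mRNA measured here does not show the phosphorylation or location of either protein.

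Counts per library summed to between 35304770 and 44003970. Values below are counts per 1000000 reads (CPM) after TMM normalization, which corrects for differences in library composition. All 7 squamous epithelial markers looked at were detected in every library, KRT14 down to 0.852 CPM. Of 6 fibroblast and 6 blood or endothelial markers, COL3A1, LUM, PDGFRB, PTPRC and CD3E stayed at or below 0.239 CPM throughout and PECAM1 at or below 0.499 CPM. The others were detected, COL1A1 at up to 86.64 CPM, CD68 at 16.79 to 57.87 CPM, COL1A2 at up to 32.9 CPM, VWF at up to 5.123 CPM, CDH5 at up to 3.134 CPM and DCN at up to 1.735 CPM.

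The genes bear TEAD motifs to different degrees around their start sites. RefSeq promoter windows, from 250 bases before to 50 after a start on GRCh38.p14, were found for 9 of the 10 genes, 12 windows in all. The letters GGAATG, or CATTCC for the other strand, which are the core that TEAD factors bind, occurred in 7 of the 12 windows. These belong to 7 genes. LATS2 holds the motif only after the start, and AMOTL2 and AJUBA hold it in 1 of their 2 windows. Of all 35116 windows 14.0% hold the motif, 1.37% hold it at least 2 times and 0.128% at least 3 times. The CTGF window holds it 3 times, at bases -169, -104 and -95, and those of ANKRD1 and NUAK2 hold it 2 times. The F3 and WWTR1 windows lack these letters, but the F3 window holds 2 matches to the AP-1 motif TGANTCA, which reads alike on both strands, at -223 and -210, and the ANKRD1 window holds 1, at -195. That motif is in 7.71% of all windows, and 0.515% hold it at least 2 times. The 250 bases before the start are shown for YAP1 (chr11:102110197-102110446, plus strand), CTGF (chr6:131951373-131951622, minus strand), ANKRD1 (chr10:90921088-90921337, minus strand), NUAK2 (chr1:205321746-205321995, minus strand) and F3 (chr1:94541760-94542009, minus strand), as the factor itself, the windows with the most motifs and the window with AP-1 motifs instead. Capitals mark the TEAD motif, and only in F3 the AP-1 motif. A match describes the letters and says nothing of whether a factor binds there.
YAP1: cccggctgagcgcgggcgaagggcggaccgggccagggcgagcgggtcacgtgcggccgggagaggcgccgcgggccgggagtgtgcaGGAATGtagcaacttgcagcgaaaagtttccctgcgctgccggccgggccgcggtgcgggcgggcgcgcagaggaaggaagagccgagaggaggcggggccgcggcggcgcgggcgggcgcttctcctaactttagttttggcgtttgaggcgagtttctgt
CTGF: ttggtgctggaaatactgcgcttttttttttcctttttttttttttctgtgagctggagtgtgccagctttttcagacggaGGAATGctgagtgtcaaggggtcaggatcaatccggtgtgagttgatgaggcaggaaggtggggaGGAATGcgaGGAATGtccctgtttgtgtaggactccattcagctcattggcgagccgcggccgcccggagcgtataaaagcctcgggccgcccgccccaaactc
ANKRD1: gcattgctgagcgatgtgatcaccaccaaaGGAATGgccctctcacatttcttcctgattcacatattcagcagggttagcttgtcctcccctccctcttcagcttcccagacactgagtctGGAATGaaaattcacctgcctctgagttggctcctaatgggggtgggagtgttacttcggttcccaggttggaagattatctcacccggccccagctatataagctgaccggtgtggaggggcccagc
NUAK2: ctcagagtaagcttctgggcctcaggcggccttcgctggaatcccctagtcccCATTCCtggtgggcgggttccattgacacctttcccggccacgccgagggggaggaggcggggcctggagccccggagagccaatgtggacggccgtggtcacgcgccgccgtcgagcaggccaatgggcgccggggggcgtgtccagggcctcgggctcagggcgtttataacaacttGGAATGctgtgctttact
F3: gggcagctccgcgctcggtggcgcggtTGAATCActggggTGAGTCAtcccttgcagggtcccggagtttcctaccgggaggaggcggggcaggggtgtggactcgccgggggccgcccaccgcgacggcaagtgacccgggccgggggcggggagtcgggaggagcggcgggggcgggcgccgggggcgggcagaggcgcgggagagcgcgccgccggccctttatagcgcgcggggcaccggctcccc

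YAP1, WWTR1 and 6 of the 8 targets were called higher in untreated Detroit 562 than in FaDu, the exceptions being CYR61 and F3. Against SCC-9 YAP1, WWTR1 and 6 of the 8 targets were also called higher, the exceptions there being AMOTL2 and NUAK2. The targets called higher than in both lines were CTGF, ANKRD1, LATS2 and AJUBA. A call here means an adjusted p below 0.1 (Benjamini-Hochberg over all genes tested, edgeR's quasi-likelihood test) together with a log2 difference of 0.4 or more in size. By this rule 8 of the 10 genes were higher and 0 lower in Detroit 562 than in FaDu, with a median log2 difference of 1.14 against -0.01 over all genes tested. Of all genes 61% were called in this comparison, 31.2% as higher in Detroit 562 and 29.8% as lower. Against SCC-9 the count was 8 higher and 1 lower, with a median of 0.75 against -0.03, where 65.4% of all genes were called, 31.4% as higher and 33.9% as lower. Between FaDu and SCC-9 it was 3 higher and 5 lower, with a median of -0.40 against -0.02 and 64.2% of all genes called, 30.7% as higher and 33.5% as lower. Each pair of these comparisons shares 3 control libraries. ANKRD1, which was tested against FaDu only because it is high elsewhere, is in each count. Without it the counts were 7 higher and 0 lower of 9 for Detroit 562 against FaDu (median 0.89) and 3 higher and 4 lower of 9 for FaDu against SCC-9 (median -0.35). Groups of control libraries did not overlap for 74%, 80.7% and 78.6% of all genes in the 3 comparisons in this order.

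Of the 2 coactivators, YAP1 set Detroit 562 apart and WWTR1 differed little. YAP1 (ENSG00000137693.13, chr11:102110461-102233423, plus strand, GRCh38) was at 1776, 1602 and 1714 CPM in the 3 control libraries of Detroit 562. In FaDu it was at 225.6, 208.2 and 209.1 CPM, and in SCC-9 at 174.7, 173.2 and 189.9 CPM. Detroit 562 lay far apart from both other lines, and FaDu lay just above SCC-9 with no overlap. The level in Detroit 562 was 7.92 times that in FaDu and 9.47 times that in SCC-9 (log2 differences of 2.99 and 3.24, adjusted p = 6.47e-15 and 1.58e-15). Between FaDu and SCC-9 the log2 difference of 0.26 (adjusted p = 0.00248) stayed below the minimum of 0.4. In such bulk samples fewer cells of a type and less RNA per cell cannot be told apart.

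WWTR1 (ENSG00000018408.14, chr3:149517235-149736714, minus strand) was at 68.35, 68.23 and 74.8 CPM in Detroit 562, 37.8, 40.03 and 36.38 CPM in FaDu and 51.93, 48.34 and 45.47 CPM in SCC-9. The 3 lines did not overlap in it either, but the differences were small: Detroit 562 was 1.85-fold above FaDu (adjusted p = 1.73e-06) and 1.45-fold above SCC-9 (adjusted p = 0.000313), and the log2 difference of FaDu minus SCC-9 was -0.35 (adjusted p = 0.00882), smaller than a call needs. Per kilobase of merged exons, the scale on which levels of different genes may be set side by side, the level of YAP1 over that of WWTR1 averaged 31.9 ± 2.16 for Detroit 562, 7.46 ± 0.523 for FaDu and 4.91 ± 0.556 for SCC-9 (SD, n = 3). YAP1 was the more abundant of the 2 coactivator mRNAs in each line on this scale.

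**Figure D1:**
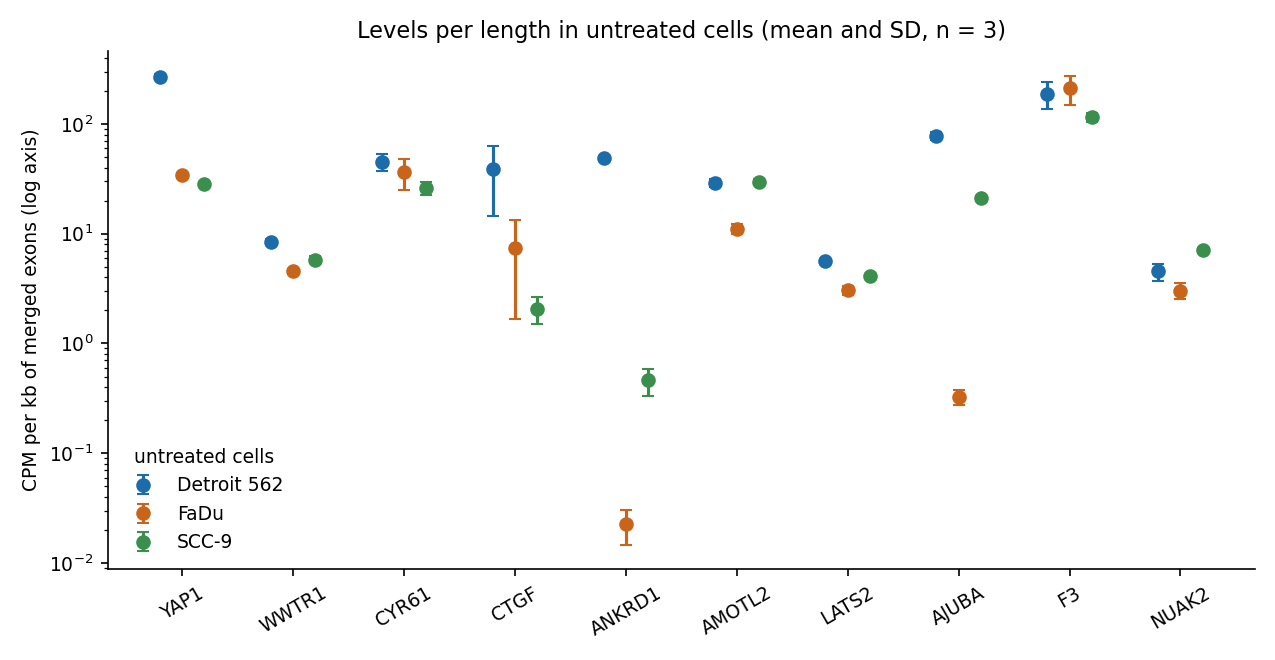
Level of each of the 10 genes in untreated cells, in CPM per kilobase of merged exons on a log axis (mean and SD of 3 libraries per cell line, colors as in the key). YAP1 leads in Detroit 562 at 269.1, F3 leads in FaDu at 211.1 and in SCC-9 at 116.1, and ANKRD1 and AJUBA spread most between lines.

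The 2 secreted matricellular targets differed between the lines to unlike degrees. CTGF (also CCN2, ENSG00000118523.5, chr6:131948176-131951373, minus strand) was at 154.6, 60.43 and 55.09 CPM in Detroit 562, 32.86, 8.614 and 10.66 CPM in FaDu and 6.291, 4.444 and 3.747 CPM in SCC-9. In every line the library of replicate 1 was the highest. Detroit 562 was 5.18-fold above FaDu (adjusted p = 0.000454) and 18.6-fold above SCC-9 (adjusted p = 3.08e-06), and FaDu was 3.60-fold above SCC-9 (adjusted p = 0.00522). CYR61 (also CCN1, ENSG00000142871.16, chr1:85580761-85583962, plus strand), its close relative, ran from 134.3 to 187.9 CPM in Detroit 562, from 86.79 to 162.1 CPM in FaDu and from 86.73 to 110.3 CPM in SCC-9. Detroit 562 and FaDu overlapped (log2 difference 0.30, adjusted p = 0.289). The call of FaDu over SCC-9 (1.41-fold, adjusted p = 0.0868) was lost without any 1 of 4 control libraries: the adjusted p was 0.281 and 0.239 without FaDu 1 and 3, and 0.176 and 0.197 without SCC-9 2 and 3.

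ANKRD1 (ENSG00000148677.6, chr10:90912096-90921276, minus strand), a nuclear ankyrin repeat protein of stressed muscle that is also read as a YAP target in epithelia, had nearly all its reads in Detroit 562. It had 88.55, 91.61 and 82.53 CPM there, 1.052, 0.8317 and 0.5862 CPM in SCC-9 (44, 35 and 23 reads), and 1, 2 and 2 reads in FaDu. FaDu was below the floor of 3 reads per library, so the gene passed the filter only through the other lines. Its fitted fold changes against FaDu are therefore not printed. They are in the counts and medians of the untreated lines above, which are also given there without ANKRD1. The gene is also in the counts for HGF in FaDu and for differences of response with FaDu, where it was not called. From summed counts the level in Detroit 562 was 2182 times that in FaDu (95% interval 934.7 to 6721, covering counting error only), and that in SCC-9 was 20.63 times that in FaDu (8.559 to 64.91). Detroit 562 exceeded SCC-9 by 105.5-fold (adjusted p = 5.31e-15).

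AJUBA (ENSG00000129474.15, chr14:22971174-22982642, minus strand), a LIM-domain scaffold that binds LATS kinases and holds them back, followed a like order. Control libraries held 492.9, 455.1 and 422.6 CPM in Detroit 562, 127.7, 127 and 118.6 CPM in SCC-9 and 2.137, 1.582 and 2.042 CPM in FaDu. The gap between Detroit 562 and FaDu was 237-fold (adjusted p = 4.49e-15), between SCC-9 and FaDu 64.6-fold and between Detroit 562 and SCC-9 3.67-fold. The gene overlaps RP11-298I3.5 (chr14:22946270-22982258) on the same strand over nearly all its length, and reads in the overlap were counted for both. In FaDu RP11-298I3.5 held 1592 to 2079 reads per library where AJUBA held 51 to 93, and how reads split between the 2 is uncertain.

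The inhibitory targets AMOTL2 and LATS2, which feed back on YAP, were lowest in FaDu. AMOTL2 (ENSG00000114019.14, chr3:134355874-134375479, minus strand), an angiomotin that tethers YAP at cell junctions, ran from 169.9 to 198.8 CPM in Detroit 562, from 181 to 200.1 CPM in SCC-9 and from 63.61 to 77.57 CPM in FaDu. Detroit 562 and SCC-9 overlapped (log2 difference -0.03, adjusted p = 0.856), and FaDu was 2.62-fold below the first and 2.67-fold below the second. LATS2 (ENSG00000150457.8, chr13:20973032-21061547, minus strand), the kinase that phosphorylates YAP and TAZ, ran from 30.23 to 32.82 CPM in Detroit 562, from 22.91 to 23.88 CPM in SCC-9 and from 15.57 to 18.95 CPM in FaDu. None of its 3 groups overlapped, with 1.85-fold between Detroit 562 and FaDu (adjusted p = 4.67e-07) and 1.36-fold for each of the other differences. Without FaDu control 2 the last of them, FaDu under SCC-9, was -0.38 on the log2 scale and no longer a call.

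F3 and NUAK2, like AMOTL2, had their highest mean of control libraries outside Detroit 562. F3 (ENSG00000117525.13, chr1:94529225-94541800, minus strand), tissue factor, the membrane protein that starts coagulation, was at 431.1, 486.3 and 717.4 CPM in Detroit 562, 482.5, 530.2 and 815.3 CPM in FaDu and 371.4, 316 and 317.6 CPM in SCC-9. Detroit 562 and FaDu overlapped (log2 difference -0.16, adjusted p = 0.538), and both exceeded SCC-9, by 1.63-fold (adjusted p = 0.0107) and 1.82-fold (adjusted p = 0.00276). NUAK2 (ENSG00000163545.8, chr1:205302059-205321791, minus strand), a kinase of the AMPK family that can restrain LATS, was highest in SCC-9 at 23.75, 24 and 24.37 CPM, against 18.48, 14.4 and 13.33 CPM in Detroit 562 and 8.666, 10.12 and 12.02 CPM in FaDu. SCC-9 stood 1.56-fold above Detroit 562 (adjusted p = 0.00331) and 2.34-fold above FaDu (adjusted p = 9.17e-06), and Detroit 562 1.50-fold above FaDu (adjusted p = 0.00753).

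**Figure D2:**
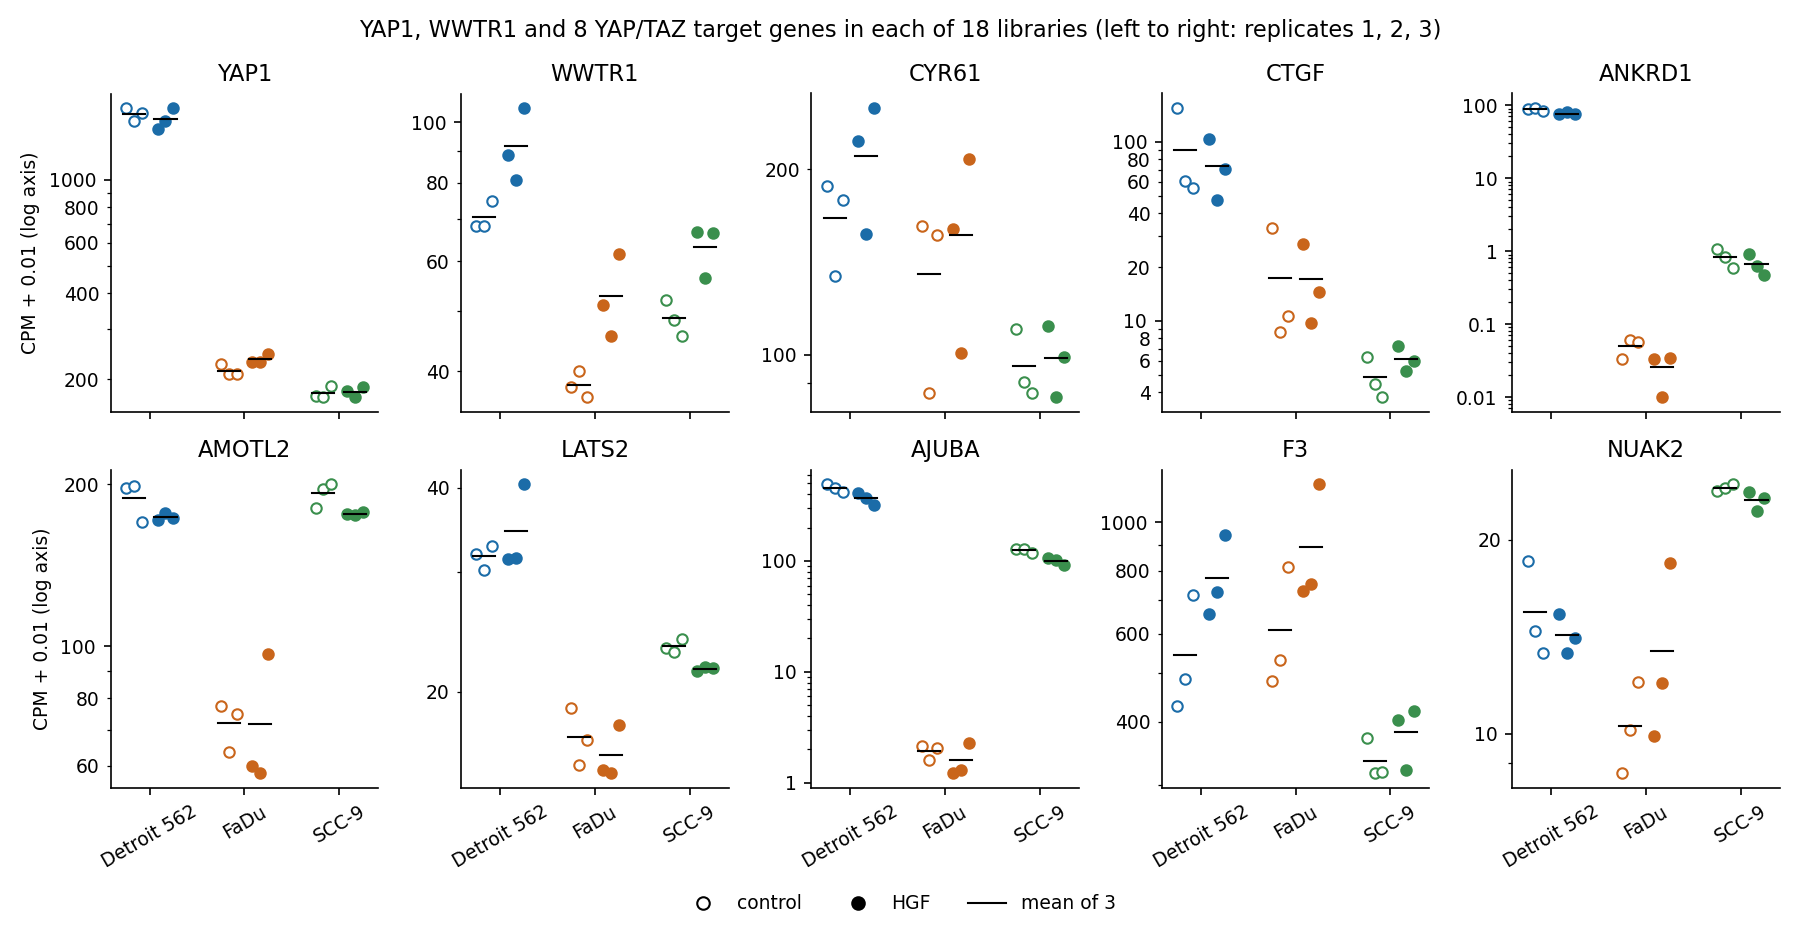
CPM of each gene in each of the 18 libraries on a log axis with 0.01 added (open circles control, filled circles HGF, replicates 1, 2 and 3 from left to right, bars mean of 3, colors by cell line). YAP1 and ANKRD1 separate Detroit 562 from the other lines, and filled circles lie above open ones for WWTR1 in each line.

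The genes next to YAP1 on chromosome 11 were high in Detroit 562 as well. Within 1 Mb of the YAP1 start, 15 other genes were tested. Of these 13 were called higher and 1 lower in Detroit 562 than in FaDu, beside 31.2% and 29.8% of all genes. Their median log2 difference was 2.95, close to the 2.99 of YAP1. Against SCC-9, 14 were called higher and 1 lower, beside 31.4% and 33.9% of all genes. The median there was 3.27, beside 3.24 for YAP1. Between FaDu and SCC-9 the median was 0.45, with 8 higher and 4 lower, beside 30.7% and 33.5% of all genes. Some of the 15, among them ANGPTL5 and TRPC6, passed the filter only through a line where they are high. ANGPTL5 had 22 to 31 reads in untreated Detroit 562, 0 to 4 in FaDu and 1 to 3 in SCC-9. C11orf70 had 0 to 4 reads in untreated FaDu. In untreated SCC-9 MMP3 and MMP12 had 0 to 2 reads and MMP13 had 1 to 2. Genes so low in a line are in these counts and medians, which are not given without them. Genes of general use lay apart in the same way: BIRC2, an inhibitor of apoptosis, was at 440.3 CPM in untreated Detroit 562 and 55.15 CPM in FaDu, TMEM123 at 2209 and 339.7 CPM, and DCUN1D5 at 581.3 and 75.16 CPM. The exceptions were the protease gene MMP12, lower in Detroit 562 than in FaDu by a log2 value of -1.74, and BIRC3, lower than in SCC-9 by -1.28. DYNC2H1, 999 kb away, was at 48.54 CPM in Detroit 562 and 48.62 CPM in FaDu. Farther out CASP4, 2832 kb away, still differed from FaDu by 2.68, and MSANTD4, 3885 kb away, by -0.69. The median log2 differences of tested genes around the 9 other genes lay between -0.82 and 1.25 in the 2 comparisons of Detroit 562. The data hold no measure of DNA copy number, and its part in these differences was not tested.

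**Figure D3:**
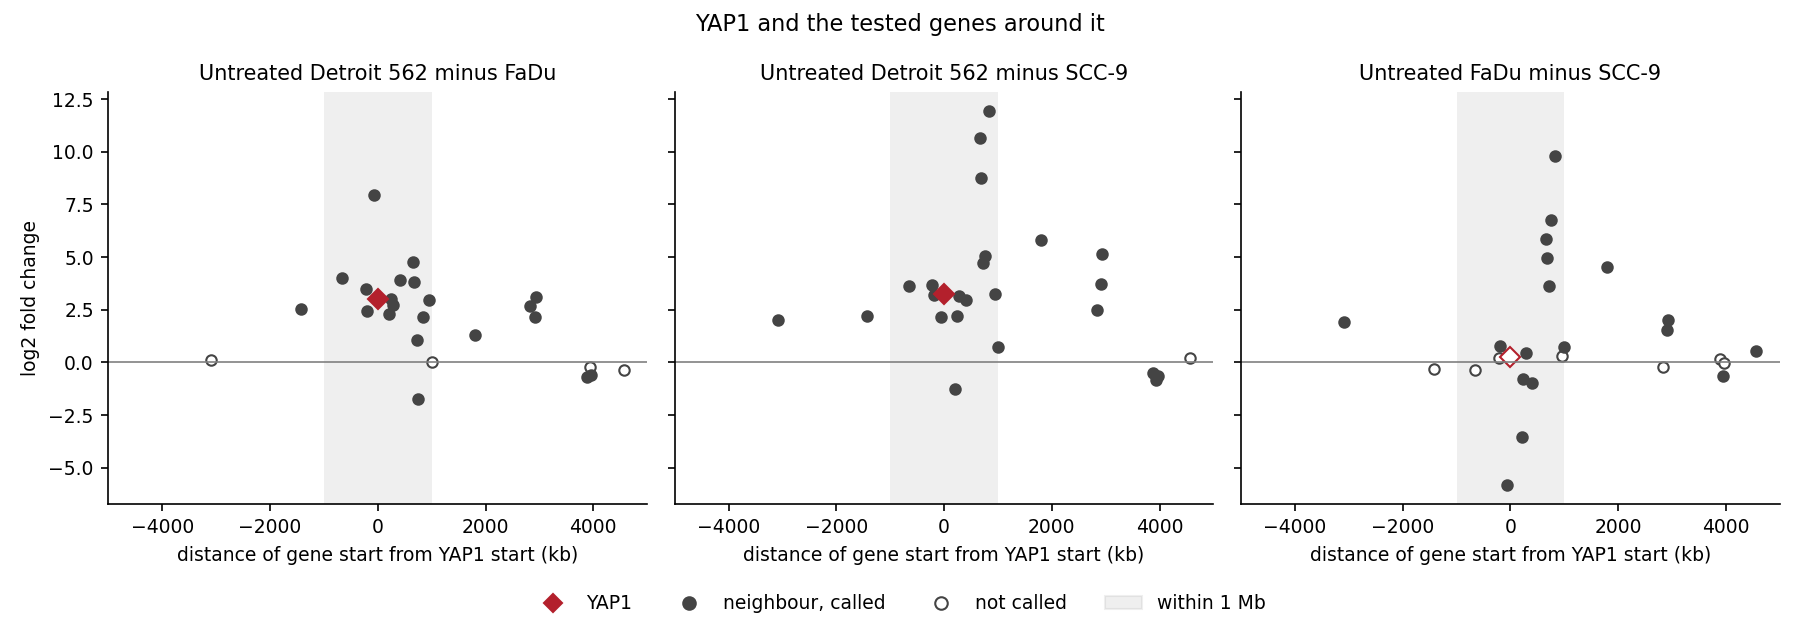
Log2 difference between untreated cell lines for tested genes within 5000 kb of the YAP1 start, by distance in kb (diamond YAP1, filled circles called genes, open circles genes not called, shading the 1 Mb on either side). In the first 2 panels the genes in the shaded part sit mostly near the diamond at 2.99 and 3.24, and in the third panel they scatter around a median of 0.45.

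With HGF the mean levels of WWTR1, F3 and CYR61 were higher and those of AJUBA and AMOTL2 lower in each line, by log2 values of at most 0.55 in size. ANKRD1 was lower as well, but is at the floor in FaDu. Whether F3 or WWTR1 passed both thresholds in a single line depended on the fit. By edgeR without a block there were 0 calls among the 10 genes in each line, where 17.9%, 0.0258% and 0% of all genes were called in Detroit 562, FaDu and SCC-9. At an unadjusted p under 0.05 the counts were 3, 3 and 2 genes, beside 38.4%, 8.06% and 4.14% of all genes. Libraries of 1 line that carry the same replicate number deviated together, so these pairs were also fitted as blocks, which is called the blocked fit here. It called 1 gene, F3, in Detroit 562 and 2 genes, F3 and WWTR1, in FaDu, beside 21.5% and 5.6% of all genes, and 0 in SCC-9 beside 1.97%. DESeq2 without a block called 1 of the 10 in Detroit 562 (F3), 1 in FaDu (WWTR1) and 0 in SCC-9. The median log2 difference of the 10 genes was -0.09, 0.06 and -0.02, against -0.01, 0.00 and 0.00 over all genes. Without ANKRD1, which is at the floor there, that of FaDu was 0.13. Markers of other cell types, and of squamous cells, were also compared with HGF in Detroit 562. The summed fibroblast markers were at 29.75 to 54.27 CPM in controls and 14.97 to 27.59 CPM with HGF. COL1A1 was at -0.77 and COL1A2 at -1.04 on the log2 scale. The other 2 sums overlapped between controls and HGF. For blood and endothelial markers they were 23.17 to 41.61 CPM and 38.38 to 56.6 CPM, for squamous markers 2780 to 4131 CPM and 1834 to 3115 CPM. Calls were 0 higher and 2 lower of 3 fibroblast markers tested, and 1 higher and 1 lower of 4 blood and endothelial markers. Of 7 squamous markers 0 were called higher and 1 lower, where 6.16% of all genes were called higher and 11.7% lower. Their part in the values of the 10 genes was not tested.

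HGF did not change YAP1 mRNA by an amount that could be called. Treated libraries held 1507, 1596 and 1780 CPM in Detroit 562, 229.6, 229.1 and 244.8 CPM in FaDu and 181.3, 173.1 and 188.3 CPM in SCC-9. Treated and control libraries overlapped in Detroit 562 and SCC-9, and in FaDu all 3 treated libraries lay above the controls, which was so for 4.05% of all genes. The log2 differences were -0.06 (95% interval -0.20 to 0.08), 0.13 (-0.01 to 0.27) and 0.01 (-0.13 to 0.16), with adjusted p = 0.540, 0.636 and 1.

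WWTR1 was higher with HGF in all 3 lines. In Detroit 562 treated libraries held 88.63, 80.71 and 105.3 CPM against 68.23 to 74.8 CPM in controls, in FaDu 50.98, 45.49 and 61.54 CPM against 36.38 to 40.03 CPM, and in SCC-9 66.83, 56.47 and 66.41 CPM against 45.47 to 51.93 CPM. The groups did not overlap in any line, and an order of this kind held for 18.1%, 4.05% and 8.3% of all genes in Detroit 562, FaDu and SCC-9. The log2 differences were 0.38 (SE 0.11), 0.47 (SE 0.11) and 0.38 (SE 0.11). In Detroit 562 the adjusted p was 0.0206 and the change stayed just under the minimum of 0.4, but was called without control 3 (0.42, adjusted p = 0.0186) or HGF 2 (0.46, adjusted p = 0.0128). In FaDu and SCC-9 the adjusted p was 0.354 and 0.837, and without HGF 2 that of FaDu was 0.0813 (0.56). In the blocked fit WWTR1 was called in FaDu (0.46, adjusted p = 0.00377), and had an adjusted p of 0.00232 in Detroit 562 and 0.0264 in SCC-9 with log2 differences of 0.37 and 0.38. Averaged over the lines, the change was 0.41 (SE 0.06, adjusted p = 0.00200), in a comparison where 6.89% of all genes were called. That mean fell to 0.37 without Detroit 562 HGF 3 or FaDu HGF 3 and to 0.40 without FaDu control 3 or SCC-9 control 3, under the minimum for a call, with an adjusted p of 0.00604 or less. The YAP1 level over the WWTR1 level per kilobase was 23.7 ± 2.16 in treated Detroit 562, 5.96 ± 0.700 in FaDu and 3.80 ± 0.237 in SCC-9 (SD, n = 3), below the untreated values in each line.

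F3, tissue factor, was the target with the largest positive difference in Detroit 562 and FaDu. Treated Detroit 562 held 656.9, 724.9 and 943.1 CPM, treated FaDu 730.4, 753 and 1191 CPM and treated SCC-9 404.1, 320.1 and 419.8 CPM. Each treated library exceeded the control of its own number, in 9 of 9 pairs, by log2 values from 0.02 to 0.61, as 30.6%, 20% and 23.9% of all genes did in all 3 pairs of Detroit 562, FaDu and SCC-9. The groups overlapped in each line, and replicate 3 was high in control and treated Detroit 562 and FaDu alike. The log2 difference was 0.51 (SE 0.23, adjusted p = 0.112) in Detroit 562, 0.55 (SE 0.23, adjusted p = 0.583) in FaDu and 0.19 (SE 0.23, adjusted p = 1) in SCC-9, so F3 was not called in any line. The blocked fit gave 0.53 (adjusted p = 1.15e-05) and 0.55 (adjusted p = 0.000117), both called, and 0.18 (adjusted p = 0.155) in SCC-9. In Detroit 562 it was also called without control 3 (0.76, adjusted p = 0.0240), HGF 1 (0.61, adjusted p = 0.0900), FaDu control 3 (0.51, adjusted p = 0.0745) or FaDu HGF 3 (0.51, adjusted p = 0.0710). The mean over the lines was 0.41 (adjusted p = 0.0377) and dropped under the minimum of 0.4, to between 0.33 and 0.39, without any 1 of 7 libraries, which were control 1, control 2 and HGF 3 of Detroit 562 and of FaDu, and SCC-9 HGF 3.

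AJUBA, the LATS-binding scaffold, lay on the other side. Treated libraries held 413.1, 366.1 and 318.2 CPM in Detroit 562 and 107.2, 101.6 and 91.83 CPM in SCC-9, all below every control of the line, as 20.1% and 9.12% of all genes were there, and 1.206, 1.282 and 2.25 CPM in FaDu, where they overlapped with controls. The log2 difference was -0.32 (SE 0.13, adjusted p = 0.0806), -0.31 (SE 0.13, adjusted p = 1) and -0.29 (SE 0.20, adjusted p = 0.695) in Detroit 562, SCC-9 and FaDu. It was past the adjusted p in Detroit 562 and, in the blocked fit, in Detroit 562 (0.000380) and SCC-9 (0.00994), but under the minimum fold change each time. Without Detroit 562 HGF 1 it was -0.42 (adjusted p = 0.0452) and called. RP11-298I3.5, which shares its reads, went from 510 to 580.4 CPM in control to 385.8 to 490.4 CPM in treated Detroit 562.

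The classical readouts CYR61, CTGF and ANKRD1 were not called in any line. CYR61 was at 222.1, 157.2 and 251.7 CPM in treated Detroit 562, above the control of the same number each time, and its log2 difference of 0.33 (SE 0.25, adjusted p = 0.355) had an adjusted p of 0.00242 in the blocked fit, where it was 0.32 and below the minimum. The CYR61 difference was 0.21 in FaDu and 0.04 in SCC-9 (adjusted p = 0.831 and 1). CTGF was at 103.1, 47.49 and 70.71 CPM in treated Detroit 562, 26.94, 9.731 and 14.44 CPM in FaDu and 7.218, 5.243 and 5.966 CPM in SCC-9, with treated and control libraries overlapping in each line. Its log2 differences were -0.29 (95% interval -1.29 to 0.71), -0.03 (-1.08 to 1.02) and 0.35 (-0.83 to 1.52), and in the blocked fit -0.20 (-0.50 to 0.10), 0.07 (-0.29 to 0.42) and 0.35 (-0.10 to 0.80). ANKRD1 was lower with HGF in Detroit 562, at 74.57, 80.73 and 74.88 CPM with no overlap, the group order of 20.1% of all genes. Its log2 difference there was -0.19 (SE 0.12, adjusted p = 0.244, 0.00857 in the blocked fit). In SCC-9 it had 38, 26 and 19 reads with HGF and a log2 difference of -0.32 (SE 0.23, adjusted p = 1). FaDu held 1, 0 and 1 reads, for which no fold is given.

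The inhibitors AMOTL2 and LATS2 and the kinase NUAK2 were not called in any line either. In SCC-9 all 3 treated libraries lay below all controls for each of them, at 175.3 to 177.4, 21.44 to 21.75 and 22.15 to 23.73 CPM, with log2 differences of -0.13, -0.11 and -0.06 (adjusted p = 1 each). Such a group order was found for 9.12% of all genes in SCC-9. In Detroit 562 they differed by -0.12, 0.12 and -0.11 (adjusted p = 0.574, 0.388 and 0.675), and in FaDu AMOTL2 and LATS2 by -0.01 and -0.09. NUAK2 went from 8.666, 10.12 and 12.02 CPM to 9.9, 11.97 and 18.41 CPM in the 3 pairs of FaDu, a difference of 0.39 (SE 0.18, adjusted p = 0.612) that had an adjusted p of 0.0170 at 0.36 in the blocked fit, under the minimum.

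**Figure D4:**
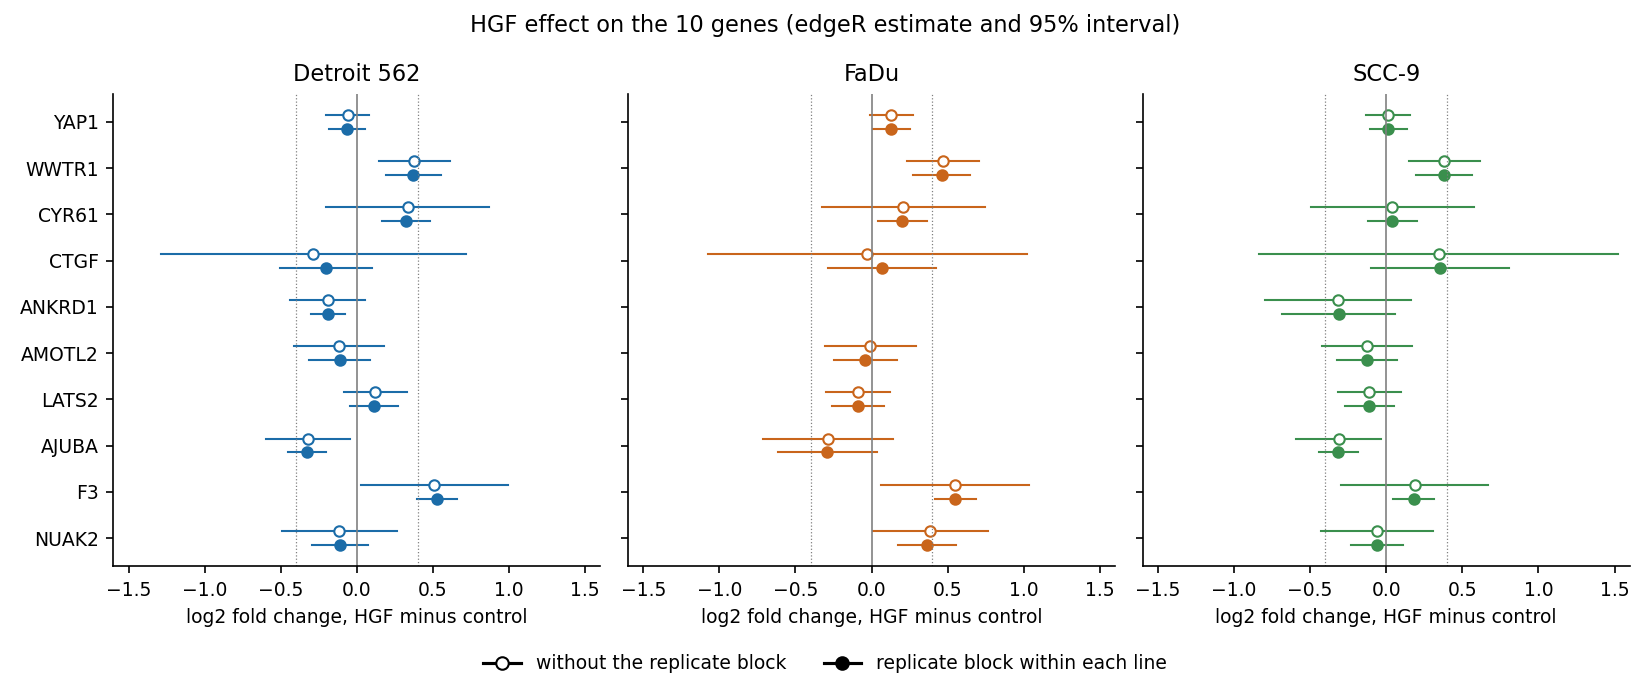
Log2 difference between HGF-treated and control cells in each line, with 95% intervals (open circles fit without a replicate block, filled circles the blocked fit, dotted lines the minimum of 0.4). WWTR1 lies to the right of 0 in each panel (0.38, 0.47 and 0.38) and AJUBA to the left (-0.32, -0.29 and -0.31), and the intervals of CTGF and F3 narrow with the block. ANKRD1 is left out in FaDu.

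Whether HGF acted differently between the lines was tested for each gene by the interaction of line and treatment, called at an adjusted p under 0.1 with no minimum fold change. Without the block edgeR called 0 of the 10 genes in the 3 comparisons. They were Detroit 562 against FaDu, Detroit 562 against SCC-9 and FaDu against SCC-9. Of all genes edgeR called 0.239%, 0.924% and 0% in this order. At an unadjusted p under 0.05 there were 0 of the 10, where 11.6%, 15.4% and 2.18% of all genes stood. DESeq2 also called 0 of the 10. In the blocked fit the F3 response was larger in Detroit 562 than in SCC-9 by 0.35 (adjusted p = 0.0150) and larger in FaDu than in SCC-9 by 0.37 (adjusted p = 0.0805). NUAK2 responded less in Detroit 562 than in FaDu, by -0.47 (adjusted p = 0.0246), and CYR61 more in Detroit 562 than in SCC-9, by 0.28 (adjusted p = 0.0758). Of all genes 19.1%, 26.9% and 1.32% were called in that fit. The WWTR1 response differed by -0.09 between Detroit 562 and FaDu (95% interval -0.42 to 0.24, adjusted p = 0.862 without the block), and was not called as different between any pair of lines.

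CTGF, CYR61 and F3 varied with the replicate number. A test of a replicate term shared by the lines, added after the values had been seen, called CTGF (adjusted p = 0.00483), CYR61 (adjusted p = 0.0192) and F3 (adjusted p = 0.0329), 3 of the 10 genes where 13% of all genes were called. CTGF was lower in replicate 2 than in replicate 1 by -1.21 and in replicate 3 by -0.97 on the log2 scale as fitted over the lines. Within the 6 groups of line and treatment the first difference ran from -1.93 in FaDu control to -0.46 in SCC-9 HGF, and the second from -1.62 to -0.27 in the same groups. CYR61 was lower in replicate 2 than in replicate 1 by -0.53, and F3 was higher in replicate 3 by 0.43. The labels do not say what the number stands for. With the mean of each line taken off, the genes whose log2 CPM was most like that of CTGF over the 18 libraries were RHOB (Pearson r = 0.84), a small GTPase of actin and vesicle traffic, the immediate early gene IER2 (0.84), PRPSAP1 (0.81), ZNF771 (0.81) and RASD1 (0.78). For CYR61 they were DEDD2 (0.91), EHD1 (0.89), a protein of endosome recycling, C6orf120 (0.88), ZNF778 (0.87) and ARL2BP (0.85). The libraries share replicate number and treatment, and the values describe these libraries only.

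**Figure D5:**
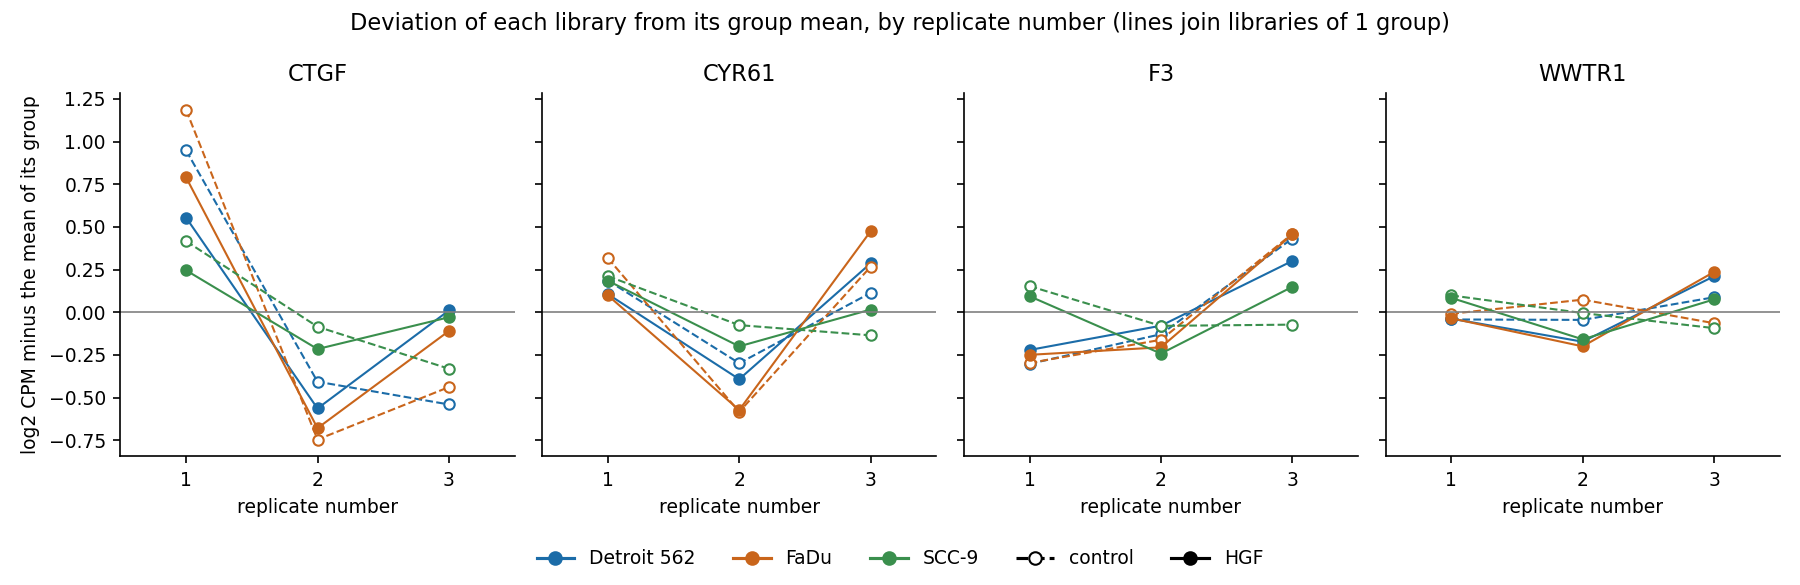
Log2 CPM of CTGF, CYR61, F3 and WWTR1 in each library minus the mean of its group, by replicate number (colors by line, dashed lines and open circles control, solid lines and filled circles HGF). CTGF is highest in replicate 1 of each group, CYR61 is lowest in replicate 2 of each group except SCC-9 control, and F3 is highest in replicate 3 of each Detroit 562 and FaDu group.

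Other genes of the pathway were called with HGF in Detroit 562, where 6.16% of all genes were called higher and 11.7% lower. Of 14 Hippo kinases and upstream regulators 3 rose and 0 fell there: MAP4K4, a kinase that can activate LATS (0.87, adjusted p = 0.00871), FRMD6, a FERM protein upstream of the kinases (0.83, adjusted p = 0.0382), and NF2, the tumor suppressor merlin (0.48, adjusted p = 0.00146). MAP4K4 went from 365.6 ± 100.3 to 668.7 ± 157.6 CPM and NF2 from 66.8 ± 5.18 to 93.04 ± 3.75 CPM (SD, n = 3). The call of FRMD6 was lost without Detroit 562 control 1 or 2 (adjusted p = 0.169 and 0.145) or HGF 3 (adjusted p = 0.287). Of 7 TEAD factors and VGLL cofactors 0 rose and 2 fell, TEAD3 (-0.46, adjusted p = 0.00266) and VGLL3 (-0.48, adjusted p = 0.0321), a cofactor that competes with YAP for TEAD. TEAD3 dropped below the minimum without Detroit 562 HGF 3 (-0.39), and VGLL3 was lost without control 1, HGF 1 or HGF 2 (adjusted p = 0.113, 0.109 and 0.109).

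Of 14 further genes reported as YAP/TAZ targets, 3 rose and 4 fell in Detroit 562. FJX1 (0.63, adjusted p = 0.0326), the receptor kinase AXL (0.64, adjusted p = 0.0636) and GADD45A (0.42, adjusted p = 0.0587) rose. CCDC80, a matrix protein, fell from 90.45 ± 34.2 to 24.34 ± 4.76 CPM (-1.89, adjusted p = 0.000974), and IGFBP3, which binds insulin-like growth factors, from 873.9 ± 25.8 to 441.6 ± 84.5 CPM (-0.98, adjusted p = 0.0131). RBMS3 (-0.91, adjusted p = 0.000913) and the cytokine TGFB2 (-0.47, adjusted p = 0.0305) fell as well. NT5E, the ecto-nucleotidase CD73, was at 1.22 (adjusted p = 0.101) and at 1.26 in the blocked fit (adjusted p = 1.94e-08). The calls of these rises were lost with some single libraries left out, which also leaves fewer libraries to test. Without control 1 or control 2 of Detroit 562 the adjusted p was 0.131 and 0.110 for FJX1 and 0.216 and 0.180 for AXL. For GADD45A it was 0.122 and 0.185, and 0.252 without HGF 3. For AXL it was also 0.105 and 0.155 without HGF 1 and HGF 3. In these fits the log2 differences were 0.57 and 0.59 for FJX1, 0.55 to 0.64 for AXL and 0.28 to 0.45 for GADD45A. TGFB2 had an adjusted p of 0.102 without HGF 1. Of the 9 relatives of the 10 genes 8 were tested, with 0 called higher and 1 lower. AMOT, the founding angiomotin, fell from 2.45 ± 0.562 to 0.837 ± 0.254 CPM (-1.54, adjusted p = 0.0463), a call lost without control 1, control 2 or HGF 3 (adjusted p = 0.147, 0.117 and 0.154).

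In FaDu and SCC-9 edgeR without a block called 0 genes of these 4 lists. At an unadjusted p under 0.05 the lists in the order above held 1, 2, 5 and 0 genes in FaDu and 0, 1, 2 and 0 genes in SCC-9, beside 8.06% and 4.14% of all genes, and DESeq2 called 1 gene, VGLL1 in FaDu. The blocked fit, which called 5.6% of all genes in FaDu and 1.97% in SCC-9, called MAP4K4 (0.54, adjusted p = 4.02e-05), NT5E (1.46, adjusted p = 1.88e-06), FJX1 (0.47, adjusted p = 0.00171) and AXL (0.48, adjusted p = 0.000595) as higher in FaDu, and VGLL1 (-1.14, adjusted p = 0.000447), CCDC80 (-1.05, adjusted p = 0.000595), IGFBP3 (-0.70, adjusted p = 0.000348) and AMOT (-0.96, adjusted p = 0.00439) as lower. In SCC-9 it called TGFB2 (-0.50, adjusted p = 0.00258), IGFBP3 (-0.50, adjusted p = 0.0358), CCDC80 (-0.44, adjusted p = 0.0724) and AMOT (-0.45, adjusted p = 0.0417) as lower.

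Between untreated lines, 10 of the 14 further targets were called higher and 1 lower in Detroit 562 than in FaDu, with a median log2 difference of 1.63, beside 31.2% and 29.8% of all genes. Among them IGFBP3 was at 873.9 ± 25.8 CPM in Detroit 562, 94.83 ± 27.4 CPM in FaDu and 13.83 ± 3.75 CPM in SCC-9. CRIM1, a transmembrane regulator of BMP signals, was at 335 ± 7.14, 41.31 ± 3.87 and 96.57 ± 3.78 CPM. FaDu was also below SCC-9 in 10 of the 14 and above it in 1, beside 33.5% and 30.7% of all genes. Detroit 562 was above SCC-9 in 6 and below it in 4, beside 31.4% and 33.9%. The VGLL cofactors differed widely: VGLL3 was at 17.87 ± 2.22 CPM in Detroit 562, 0.425 ± 0.0844 CPM in FaDu and 203.1 ± 31.1 CPM in SCC-9, and VGLL1 at 130.9 ± 12.9, 6.21 ± 2.27 and 2.69 ± 0.846 CPM (SD, n = 3). Hippo kinases and regulators were called higher in 6 and lower in 4 of 14 for Detroit 562 over FaDu, with a median of 0.09, which is near the 61% of all genes called in either direction. LATS1, the partner of LATS2, was at 23.88 ± 3.69 CPM in Detroit 562, 52.17 ± 3.19 CPM in FaDu and 47.83 ± 1.20 CPM in SCC-9. Of the 8 relatives 5 were higher and 1 lower in Detroit 562 than in FaDu.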

How the data were processed

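mRNA of 3 HNSCC lines was sequenced from stranded libraries. The authors trimmed the reads (cutadapt 1.16), aligned them to GRCh38.p12 with STAR 2.5.2b and, with bedtools, counted the reads over each gene's whole extent on its strand. The deposited values are these raw counts, which are not normalized. A read over overlapping genes on 1 strand was counted for each, and intronic reads are included, so levels per kilobase of merged exons (GENCODE 44) are approximate.

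In R 4.3.3 the counts were tested by edgeR 4.0.16, after filterByExpr on the 6 groups and TMM normalization. The quasi-likelihood fit of all 18 libraries held 1 mean per line and treatment. Adjusted p values are Benjamini-Hochberg values over all 15475 genes tested. Alternatives were other size factors and filters, DESeq2 1.42.0 (with and without the fold change prior the authors used), a replicate block, no minimum fold change, the 6 libraries of 1 line alone and each library left out. The mean over lines, the test of the replicate number, a block shared by the lines the counts without ANKRD1 and the genes around YAP1 were added after values had been seen. The fit was tested on simulated data.

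Same-numbered control and HGF libraries of a line correlated at 0.376 to 0.708 across genes in their deviations from the group means, and those of different number at -0.642 to 0.349. Genes are not independent replicates in these correlations. In Detroit 562 control 1 and HGF 2 correlated at 0.349, beside 0.376 for control 2 and HGF 2. Pairing by number is thus read from these same libraries and is not given by the labels. The blocked fit rests on it.

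The 10 genes and 4 further lists (Hippo kinases and regulators, TEAD factors and VGLL cofactors, other reported targets, relatives) and 3 lists of markers (squamous, fibroblast, blood or endothelial) were chosen with earlier results of these data known. Genes of the 4 lists were named where called, together with the 5 genes most like CTGF and CYR61. List members without a call, genes around YAP1 and RP11-298I3.5 were named after their values had been seen. No promoter window was used for CYR61.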

Additional observations from a re-analysis of the deposited data

Results flagged for a closer look

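With same-numbered libraries of a line fitted as blocks, 4 responses to HGF differed between lines by the test of the difference itself, at an adjusted p under 0.1 by edgeR's quasi-likelihood test. They were 1 of the 10 genes for Detroit 562 against FaDu, 2 for Detroit 562 against SCC-9 and 1 for FaDu against SCC-9, beside 19.1%, 26.9% and 1.32% of all genes. The log2 response of NUAK2 was lower in Detroit 562 than in FaDu by -0.47 (adjusted p = 0.0246), that of CYR61 was higher in Detroit 562 than in SCC-9 by 0.28 (adjusted p = 0.0758), and that of F3 was higher in Detroit 562 and in FaDu than in SCC-9, by 0.35 (adjusted p = 0.0150) and 0.37 (adjusted p = 0.0805). Without the block the same differences were -0.50, 0.29, 0.32 and 0.36, with adjusted p = 0.458, 0.738, 0.669 and 1.00.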

How the results depend on the processing

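Of 2669 values of the 10 genes under an alternative, 2625 stayed on the same side of the call, 27 became a call, 17 ceased to be one and 0 called values reversed. Among the 2625 were 96 that changed sign without being called either way. The calls between untreated lines numbered 8 for Detroit 562 against FaDu, 9 for Detroit 562 against SCC-9 and 8 for FaDu against SCC-9 under all alternatives run, except 10 for FaDu against SCC-9 with no minimum fold change, 7 to 8 there with a library left out, and 7 in either comparison with FaDu without ANKRD1.

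Pairing by replicate number moved several counts under HGF. With the replicate block within each line the count of the 10 genes called went from 0 to 1 in Detroit 562 and from 0 to 2 in FaDu, stayed at 0 in SCC-9, and went from 0 to 1, 2 and 1 for the differences of response, Detroit 562 against FaDu, Detroit 562 against SCC-9 and FaDu against SCC-9. With a block shared by the lines it was 1 in Detroit 562 and 1 in FaDu, and DESeq2 with or without its prior gave 1 in each of the 2. Without a minimum fold change Detroit 562 had 2. Leaving out a library gave 0 to 2 in Detroit 562, 0 to 1 in FaDu and 0 to 2 for the mean over the lines, where the count was 2 and was 1 with upper-quartile factors. The cause of these shifts was not tested.

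Over all genes the calls under HGF were 2766 in Detroit 562 (5276 with no minimum fold change, 1586 to 3629 with a library left out), 4 in FaDu (867 with the block, 45 with the shared block, 0 from its 6 libraries alone, 66 and 65 by DESeq2, 0 to 74 with a library left out) and 0 in SCC-9 (305, 7, 25, 19 and 19 by the same alternatives in this order, 3 with no minimum fold change, 0 to 2 with a library left out). For the differences of response it was 37, 143 and 0 in the order above (2956, 4170 and 204 with the block, and 4 to 450, 14 to 1240 and 0 to 0 with a library left out). Of the relatives of the 10 genes, 1 was called in Detroit 562, and 2, with NOV added, in the blocked fit.

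Ranked by level per gene extent in place of merged exons, YAP1 moved among the 10 genes from 1 to 5 in Detroit 562, from 3 to 5 in FaDu and from 3 to 6 in SCC-9, and F3 from 1 to 2 in SCC-9, since long genes with many introns lose most by it. By Spearman's rho in place of Pearson's r, 3 of the 5 genes most like CYR61 and 1 of the 5 most like CTGF were kept. The interval of CTGF is wide without the block, and ANKRD1 in FaDu is below the floor of 3 reads.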
